A study of Mus musculus with 6 samples.

Results

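The G2/M and mitosis genes are 34 mouse genes that act between the end of DNA replication and the separation of the daughter cells, and they were chosen by name for that role. The array annotation gave 32 of them a probe set of their own, out of 22180 genes named in this way. Ccnb1 and Ncapg, with no probe set of a single symbol, were not analysed here. Each of the 32 had 1 such probe set, and all 32 passed the filter on dim genes, with means over the 6 arrays of 5.81 to 9.96 log2 units against a minimum of 3.01. The series holds 6 arrays of LT-HSC, the long-term stem cells that rebuild the blood after a transplant, sorted from C57/BL6 bone marrow 4 months after transplantation. In 3 arrays the RNA came from pools of animals expressing NPMc+, a nucleophosmin mutant that is displaced to the cytoplasm in acute myeloid leukaemia, and in 3 arrays from pools of control animals. All 6 pools had passed through the transplant. The sources used here do not say how NPMc+ was expressed, in which cells, or what the control animals carried in its place. The series title places the comparison in the question of whether mutant nucleophosmin keeps stem cells dormant.

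A cell enters mitosis when the kinase Cdk1, bound to a B-type cyclin, becomes active, and it leaves mitosis when the anaphase-promoting complex has those cyclins destroyed. In between, the Aurora and Polo kinases build the spindle, and a checkpoint at the kinetochores holds the cell until each chromosome is attached. Transcription of these genes is held off in resting cells and switched on late in the cycle, through the MuvB protein complex with B-Myb and then FoxM1. Most LT-HSC in an unperturbed marrow rest outside the cycle, and these genes are expressed mainly by dividing cells. In RNA from pooled cells, fewer dividing cells and less RNA per dividing cell cannot be told apart.

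The members shared promoter sequence that played no part in their choice. Promoter windows, 250 bases before and 50 after the transcript start in RefSeq (GRCm38.p6), were at hand for 28 members; Ccna2, Cdc25c, Aurkb, Foxm1, Kif20a and Tpx2 had no entry. The windows were searched on both strands for TTTGAA and TTTAAA, forms of the cell cycle genes homology region (CHR) that MuvB complexes bind, for CCAAT, the box bound by NF-Y, and for GCGCGAAA, a form of the E2F site. The motifs were counted apart from each other, also where they shared bases. TTTGAA stood in 21 of 28 windows (75%), against 17.9% of all 32851 windows of that length, which belong to 27025 genes. CCAAT stood in 22 of 28 (78.6%), against 37.4% of all windows, and 16 of 28 (57.1%) held it at least 2 times, against 11.7%. TTTAAA was found in 8 of 28 (28.6%, against 13.2%) and GCGCGAAA in 1 of 28, Cdk1, against 0.323%. In 20 of 28 windows (71.4%) a TTTGAA began between base -30 and base 50 from the start, against 3.83% of all windows; that range was chosen after the positions were seen. Of 30 windows of 25 G1/S genes, 10% held TTTGAA and 20% GCGCGAAA. CCAAT stood in 60% of them, and in 36.7% at least 2 times. The 97 windows of 84 other mitosis genes, from a list described below, held TTTGAA in 51.5% and CCAAT in 60.8%. In 35.1% CCAAT stood at least 2 times. Genes with several windows count more than once in these shares. These motifs were thus not particular to the members. Bub1, Nuf2, Nusap1 and Tacc3 had neither TTTGAA nor TTTAAA in the window, which says only that these letters were not found there.

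The windows of 7 of the members whose array values are given in full below are printed from 120 bases before the start to 30 after it, 5′ to 3′ on the gene's own strand, to show how closely the motifs lie together. They are Mki67 at chr7:135716350-135716499 on the minus strand, Top2a at chr11:99024160-99024309 on the minus strand, Cdk1 at chr10:69352883-69353032 on the minus strand, Plk1 at chr7:122159315-122159464 on the plus strand, Cdc20 at chr4:118437314-118437463 on the minus strand, Aurka at chr2:172370541-172370690 on the minus strand and Cdca8 at chr4:124936888-124937037 on the minus strand. Capitals mark the motif bases, as TTTGAA (or TTCAAA on the other strand), TTTAAA and CCAAT (or ATTGG). Motifs of the longer windows that lie outside the printed bases are not shown. Among them are a TTTGAA from base 31 in Plk1 and from base 33 in Aurka. So are the CCAAT boxes of Mki67, at -188, -166 and -141, and the GCGCGAAA of Cdk1, at -131.
Mki67: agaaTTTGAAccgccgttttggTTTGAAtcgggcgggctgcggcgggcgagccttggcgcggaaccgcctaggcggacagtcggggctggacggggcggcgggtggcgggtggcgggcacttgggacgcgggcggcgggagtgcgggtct
Top2a: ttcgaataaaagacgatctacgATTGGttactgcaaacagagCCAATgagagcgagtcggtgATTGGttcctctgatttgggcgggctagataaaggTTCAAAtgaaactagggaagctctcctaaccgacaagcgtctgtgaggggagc
Cdk1: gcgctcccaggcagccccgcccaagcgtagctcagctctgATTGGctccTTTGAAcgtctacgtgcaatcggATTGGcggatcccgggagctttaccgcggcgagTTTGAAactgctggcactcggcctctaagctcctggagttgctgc
Plk1: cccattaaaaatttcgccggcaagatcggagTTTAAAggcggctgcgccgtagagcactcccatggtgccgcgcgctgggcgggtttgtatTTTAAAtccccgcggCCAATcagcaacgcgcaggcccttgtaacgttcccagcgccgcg
Cdc20: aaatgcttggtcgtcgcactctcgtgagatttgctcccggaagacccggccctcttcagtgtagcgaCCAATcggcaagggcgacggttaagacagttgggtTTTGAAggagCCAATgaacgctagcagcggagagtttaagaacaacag
Aurka: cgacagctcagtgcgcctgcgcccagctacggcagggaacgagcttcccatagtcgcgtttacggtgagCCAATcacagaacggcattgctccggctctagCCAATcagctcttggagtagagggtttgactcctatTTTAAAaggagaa
Cdca8: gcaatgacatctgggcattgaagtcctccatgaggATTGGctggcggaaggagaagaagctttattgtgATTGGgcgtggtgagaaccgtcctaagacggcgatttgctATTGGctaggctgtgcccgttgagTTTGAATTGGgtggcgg
In Cdc20 the TTTGAA lies between CCAAT boxes, and in Cdk1 each TTTGAA follows a CCAAT box on the other strand. In Cdca8 the last ATTGG overlaps the TTTGAA. In Mki67 both copies of TTTGAA lie further upstream. Birc5 and Cenpe, also given in full below, have windows that are not printed. Over the same bases Birc5 held none of the motifs, and Cenpe held CCAAT and TTTAAA.

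None of the 32 G2/M and mitosis genes passed the test between NPMc+ and control LT-HSC. At an adjusted p under 0.05, limma with the replicate pair as a block called 0 members, as it called 0% of the 16635 genes tested. At an unadjusted p under 0.05 the count was 0 of 32, against 8.97% of all genes tested. On average 13 members were higher and 19 lower in NPMc+, with a median difference of -0.057 log2 units, against 0.032 over all genes tested. The median size of a member's difference, whatever its sign, was 0.15 log2 units, and that of all genes 0.18. Without the block, limma called 1 member at an adjusted p under 0.05 (4.98% of all genes) and 5 at an unadjusted p under 0.05 (24.9%). With the block, the limma adjusted p-values of the members ran between 0.572 and 0.992.

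The intervals of the blocked limma fit bound how large a difference could have been missed. Its standard errors and intervals are moderated, each gene's variance being drawn toward a value common to all genes. That common value counts for 4.537 degrees of freedom, against 2 from the gene's own pairs. The ± values below are thus not the spread of a gene's own 3 pairs. The 95% interval of a member's difference extended a median of 0.47 log2 units to each side, or 1.38-fold. For 30 of the 32 members the whole interval lay within a 2-fold difference in either direction, as it did for 83.6% of all genes tested. Aurka and Cdca8 were the exceptions, with upper ends at 1.63 and 1.02 log2 units. For 13 of the 32 the interval lay within 1.5-fold.

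**Figure D1:**
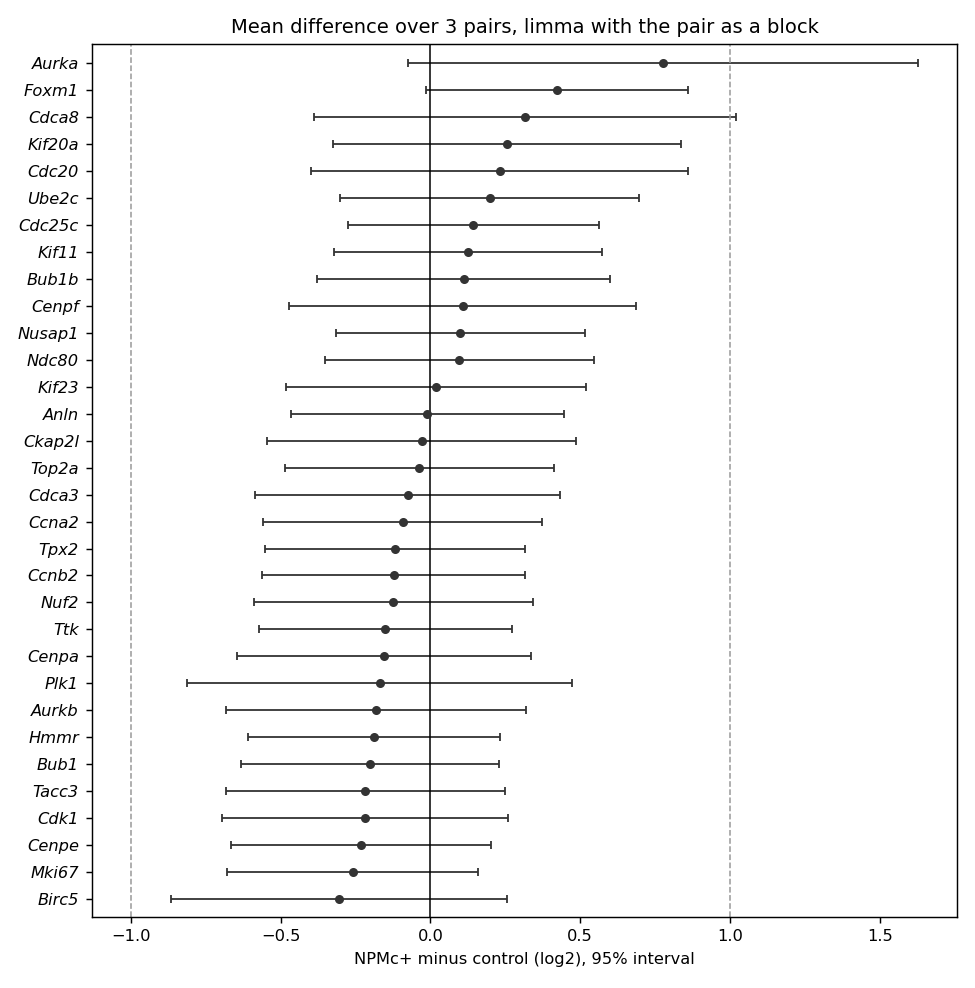
Mean difference of each G2/M and mitosis gene (x axis, NPMc+ minus control, log2) over 3 pairs in the blocked limma fit. Bars are 95% intervals and dashed lines mark a 2-fold difference. All 32 intervals include 0, and those of Aurka and Cdca8 pass the upper 2-fold line.

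Taken pair by pair, the members leaned one way in 2 pairs and the other way in the third. In pair 1, 25 of 32 were lower in the NPMc+ pool, against 49.5% of all genes tested. In pair 2, 21 of 32 were higher in the NPMc+ pool (54.5% of all genes), and in pair 3, 21 of 32 were lower (46.9%). The medians of the members were -0.19, 0.20 and -0.16 log2 units in pairs 1, 2 and 3, where those of all genes were 0.0025, 0.049 and 0.030. After quantile normalization the counts were the same 25, 21 and 21, with medians of -0.23, 0.12 and -0.21. For 20 of 32 members the difference in pair 2 was the highest of the 3, as it was for 37.9% of all genes. Summed over the 32 members, the level was 13.23, 13.35 and 13.24 log2 units in the NPMc+ pools 1 to 3, against 13.36, 13.26 and 13.37 in the control pools. The NPMc+ pool was thus below its control in pairs 1 and 3 and above it in pair 2. The pairs stand for separate pools of animals, and with 3 of them an exact test of signs cannot give a p below 0.25.

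**Figure D2:**
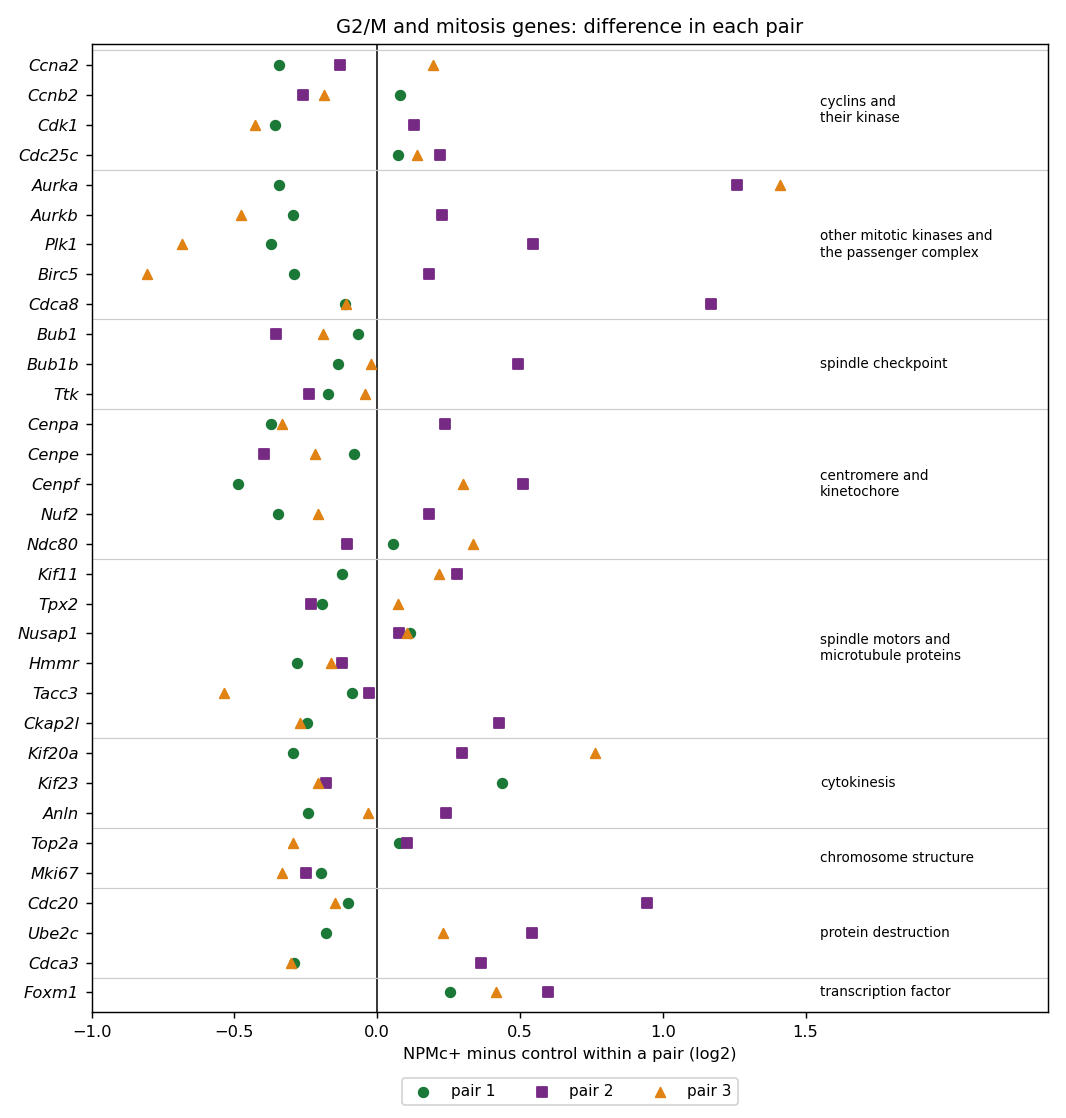
Difference within each pair (x axis, NPMc+ minus control, log2) for the 32 G2/M and mitosis genes, grouped by role; each symbol is 1 pair. Most circles (pair 1) and triangles (pair 3) lie left of 0, and 21 of 32 squares (pair 2) lie right of it.

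In 9 of 32 members the difference had 1 direction in all 3 pairs (28.1%), against 30.2% of all genes tested. In these values the groups do not overlap exactly when the 3 pairs have 1 direction, because each pair is centred on the same mean. The 3 that were higher in the NPMc+ pool of every pair (17.4% of all genes) were Foxm1, Cdc25c and Nusap1. The 6 that were lower in every pair (12.8% of all genes) were Mki67, Bub1, Ttk, Cenpe, Hmmr and Tacc3. Across the 32 members, the differences of pairs 1 and 2 had a Pearson correlation of -0.23, those of pairs 1 and 3 of 0.040 and those of pairs 2 and 3 of 0.36. Over all 16635 genes the values were 0.17, 0.16 and 0.16. The members of a pair share the same 2 arrays, so these are descriptions only.

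Of the cyclins and their kinase, Cdk1 had 8.82, 9.06 and 8.78 log2 units in the NPMc+ pools 1 to 3, against 9.18, 8.93 and 9.21 in the control pools. It was lower in NPMc+ in pairs 1 and 3 and higher in pair 2, so that the groups overlapped, and its mean difference was -0.22 ± 0.20 (SE; limma adjusted p 0.815). Ccna2, the cyclin of S phase and early mitosis, averaged 8.89 in NPMc+ and 8.98 in control. Ccnb2, a B-type cyclin, averaged 9.66 in NPMc+ and 9.78 in control. Cdc25c, the phosphatase that releases Cdk1 from inhibition, was higher in NPMc+ by 0.073, 0.22 and 0.14 log2 units in pairs 1 to 3, and its interval of -0.28 to 0.56 includes 0.

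Of the other mitotic kinases and the passenger complex, all 5 members were lower in the NPMc+ pool of pair 1 and all 5 higher in that of pair 2; in pair 3, 4 of 5 were lower. Plk1, the Polo kinase of spindle assembly and mitotic entry, had 7.08, 7.54 and 6.93 log2 units in the NPMc+ pools, against 7.45, 7.00 and 7.61 in the control pools. Aurkb, the kinase of the passenger complex that corrects faulty chromosome attachment, had 7.75, 8.01 and 7.65 in NPMc+, against 8.04, 7.78 and 8.13 in control. In both genes the NPMc+ pool was the higher one of its pair only in pair 2. Their mean differences were -0.17 ± 0.27 and -0.18 ± 0.21 (SE; limma adjusted p 0.898 and 0.855).

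Birc5, or survivin, which brings Aurora B to the centromere, had 8.33, 8.57 and 8.07 log2 units in the NPMc+ pools, against 8.62, 8.38 and 8.88 in the control pools. It had the most negative mean difference of the members, -0.31 ± 0.23 (SE; limma adjusted p 0.769), with pair 2 on the other side of 0. Cdca8, or borealin, of the same complex, had 7.43, 8.07 and 7.43 in NPMc+, against 7.54, 6.90 and 7.54 in control. Pairs 1 and 3 thus differed by -0.11 each and pair 2 by 1.17. Its mean difference of 0.32 ± 0.29 (limma adjusted p 0.821) was -0.11 without pair 2.

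Aurka, the Aurora kinase of centrosome maturation and spindle assembly, had the largest mean difference among the members. It had 6.86, 7.66 and 7.73 log2 units in the NPMc+ pools, against 7.20, 6.40 and 6.32 in the control pools. The NPMc+ pool was higher by 1.26 in pair 2 and by 1.41 in pair 3 but lower in pair 1, at -0.34. The mean difference was 0.78 ± 0.36 (SE; 1.71-fold), with a limma adjusted p of 0.600 and an unadjusted p of 0.0681. Without pair 1, the pair of opposite sign, it was 1.33, with an unadjusted limma p of 0.00225 and an adjusted p of 0.507. Without pair 2 it was 0.53 (unadjusted limma p 0.257) and without pair 3 it was 0.46 (0.268). Tpx2, the spindle protein that activates Aurora A, did not share the pattern, with differences of -0.19, -0.23 and 0.072 in pairs 1 to 3.

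**Figure D3:**
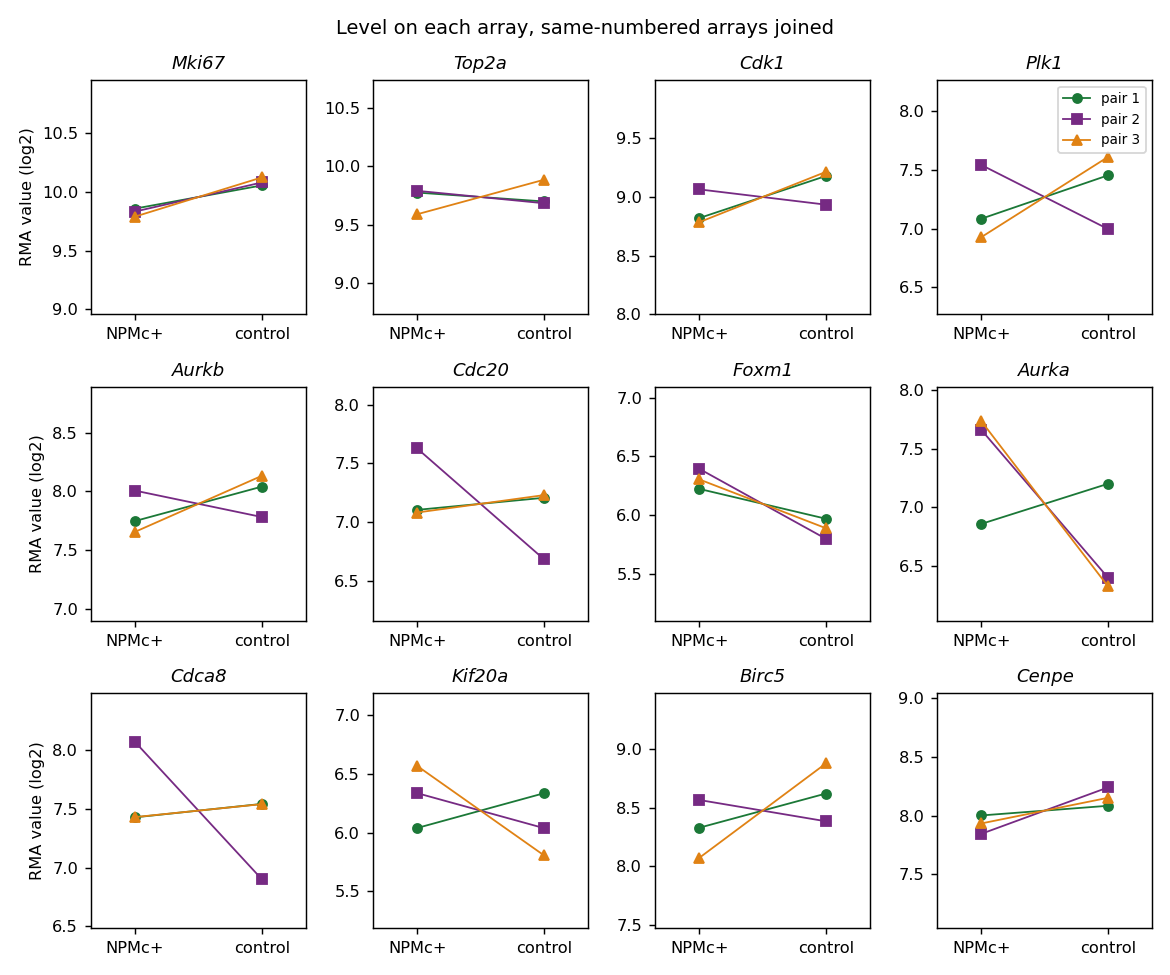
Level of 12 G2/M and mitosis genes on each array (y axis, RMA value, log2; each panel spans 2 log2 units), with NPMc+ and control arrays of the same pair joined. Lines for Mki67 and Cenpe run upward to control and those for Foxm1 downward in all 3 pairs, and those for Cdc20 and Cdca8 run steeply downward in pair 2 alone.

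The spindle checkpoint genes were lower in NPMc+ in pairs 1 and 3, all 3 of them. Bub1, a kinase that marks unattached kinetochores, averaged 7.94 in NPMc+ and 8.14 in control, and Ttk, the kinase that starts the checkpoint signal, 7.54 in NPMc+ and 7.69 in control; neither group overlapped the other. Bub1b, or BubR1, which blocks the anaphase-promoting complex, was the exception in pair 2, where it was higher in NPMc+ by 0.49. The mean differences of the 3 genes were -0.20, -0.15 and 0.11 log2 units, none past the test.

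Among centromere and kinetochore genes, Cenpe, the motor that carries chromosomes to the spindle equator, had 8.002, 7.845 and 7.933 log2 units in the NPMc+ pools, against 8.084, 8.241 and 8.152 in the control pools. Every control pool was above every NPMc+ pool, and the difference was -0.23 ± 0.18 (SE; limma adjusted p 0.773). Cenpa, the histone H3 variant that marks centromeres, and Nuf2, a subunit of the Ndc80 complex that holds microtubules, were lower in pairs 1 and 3 and higher in pair 2. Ndc80 itself differed from its partner Nuf2 in each pair's sign, at 0.057, -0.10 and 0.34 against -0.35, 0.18 and -0.21. Cenpf, a large kinetochore and nuclear matrix protein, differed by -0.49, 0.51 and 0.30.

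Of the spindle motors and microtubule proteins, 3 of 6 had 1 direction in all pairs, against 30.2% of all genes tested. Nusap1, which bundles spindle microtubules, was higher in NPMc+ by 0.11, 0.077 and 0.11 log2 units in pairs 1 to 3. Hmmr, a spindle protein also known as a hyaluronan receptor, differed by -0.28, -0.12 and -0.16, and Tacc3, which steadies kinetochore fibres, by -0.087, -0.029 and -0.53. These differences were of like size within Nusap1 and Hmmr, yet their intervals of -0.32 to 0.52 and -0.61 to 0.23 include 0. The SD over the 3 pairs was 0.019 for Nusap1 and 0.082 for Hmmr, where the moderated SE was 0.17 and 0.18. Kif11, the motor that pushes the spindle poles apart, had a mean difference of 0.12 and Ckap2l, a spindle protein, of -0.030.

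Of the cytokinesis genes, Kif20a, a motor of the central spindle, had 6.04, 6.34 and 6.57 log2 units in the NPMc+ pools, against 6.34, 6.04 and 5.81 in the control pools. Only in pair 1 was the NPMc+ pool the lower one, and the mean difference was 0.25 ± 0.24 (SE; limma adjusted p 0.824). Kif23, the motor of the centralspindlin complex, had the opposite order, higher in NPMc+ by 0.44 in pair 1 and lower in pairs 2 and 3. Anln, or anillin, the scaffold of the cleavage furrow, had a mean difference of -0.011.

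Mki67, which codes for the Ki-67 protein that coats mitotic chromosomes and is the usual marker of dividing cells, had 9.86, 9.83 and 9.79 log2 units in the NPMc+ pools, against 10.06, 10.08 and 10.12 in the control pools. Every NPMc+ pool was below every control pool, with differences of -0.20, -0.25 and -0.33 in pairs 1 to 3. The mean difference was -0.26 ± 0.17 (SE; 1.20-fold; 95% interval -0.68 to 0.16; limma adjusted p 0.729). Top2a, the topoisomerase that untangles sister chromatids, had 9.77, 9.79 and 9.59 in NPMc+, against 9.70, 9.68 and 9.88 in control, and only pair 3 was lower in NPMc+. Its mean difference was -0.038 ± 0.19 (limma adjusted p 0.975).

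The protein destruction genes differed most in pair 2. Cdc20, which activates the anaphase-promoting complex, had 7.10, 7.63 and 7.08 log2 units in the NPMc+ pools, against 7.21, 6.68 and 7.23 in the control pools. Pair 2 differed by 0.94 and the other pairs by -0.10 and -0.15, and the mean difference of 0.23 ± 0.26 (SE; limma adjusted p 0.854) was -0.13 without pair 2. Ube2c, the ubiquitin-conjugating enzyme of that complex, differed by -0.18, 0.54 and 0.23, and Cdca3, an F-box-like trigger of mitotic entry, by -0.29, 0.36 and -0.30. All 3 genes were lower in the NPMc+ pool of pair 1 and higher in that of pair 2.

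Foxm1, the forkhead factor that drives late cell cycle transcription, was the member nearest to the test's threshold. It had 6.22, 6.40 and 6.30 log2 units in the NPMc+ pools, against 5.97, 5.80 and 5.89 in the control pools, and the groups did not overlap. The difference was 0.42 ± 0.18 (SE; 1.34-fold; 95% interval -0.013 to 0.86), with a limma adjusted p of 0.572 and an unadjusted p of 0.0555. Without the filter on dim genes the unadjusted p was 0.0422, and without the pair as a block its limma adjusted p was 0.0489, the 1 member call of that fit. The unadjusted limma p was 0.0986 after quantile normalization and 0.0943 with an intensity trend. It was 0.0732 with genes under the 50th percentile left out and 0.0536 with averaged probe sets. Leaving out pair 1, 2 or 3 gave 0.0940, 0.176 and 0.136, with differences of 0.51, 0.34 and 0.43.

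Of 103 other mitosis genes listed, 97 were tested, 51 higher and 46 lower in NPMc+ on average, with a median of 0.032 log2 units. Quantile normalization turned this to 44 higher and 53 lower, with a median of -0.053. As deposited, 14 of the 97 were higher and 18 lower in every pair, against 17.4% and 12.8% of all genes tested. After quantile normalization the counts were 2 and 21 of the 97, against 2604 and 2206 of all 16635 genes tested. In the limma fit at an unadjusted p under 0.05, 1 was higher and 3 were lower, against 5.95% and 3.02% of all genes tested, and 0 passed the adjusted threshold in limma. The 3 lower ones code for kinetochore and centromere proteins. Nsl1, of the Mis12 complex, differed by -0.16, -1.10 and -1.89 in pairs 1 to 3, with a mean difference of -1.05 ± 0.33 (SE; limma adjusted p 0.459). Cenpk and Cenpi differed by -0.56 ± 0.21 and -0.47 ± 0.19. The higher one, Cdc23, a subunit of the anaphase-promoting complex, differed by 0.55 ± 0.22. Without pair 3, 0 of the 97 had an unadjusted limma p under 0.05, against 1257 of all 16635 genes tested. Mybl2, which codes for B-Myb, differed by -0.14 ± 0.22.

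Genes of G1/S and DNA replication shared the lean of the pairs. Of the 28 tested, 21 were lower in the NPMc+ pool of pair 1, 24 higher in that of pair 2 and 18 lower in that of pair 3, with medians of -0.13, 0.32 and -0.058 log2 units. For 21 of 28 the difference in pair 2 was the highest of the 3, against 37.9% of all genes and 37 of the 97 other mitosis genes. At an unadjusted limma p under 0.05, 1 was higher and 1 lower, against 5.95% and 3.02% of all genes tested. The adjusted threshold was passed by 0. Ccne1, the cyclin of S phase entry, differed by -0.58 ± 0.20 (SE; limma adjusted p 0.485) and Pole, the leading strand polymerase, by 0.49 ± 0.18 (limma adjusted p 0.514). Over the other mitosis genes the lean was weaker or absent in the deposited values, with pair medians of -0.073, 0.036 and 0.0014. After quantile normalization 66 of the 97 were lower and 31 higher in pair 1. In pair 2, 47 were then higher and 50 lower, and in pair 3, 42 were higher and 55 lower. Of all 16635 genes tested, 8618 were then lower in pair 1, 7325 in pair 2 and 8337 in pair 3. The difference between the lists was not tested.

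**Figure D4:**
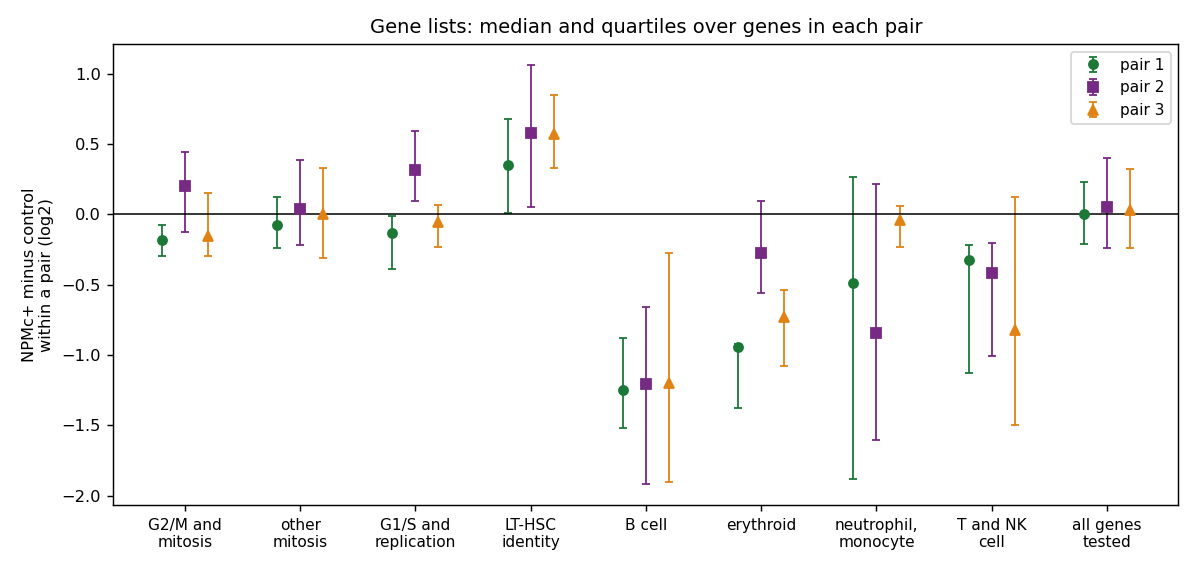
Median difference over the genes of each list in each pair (y axis, NPMc+ minus control, log2), with quartiles over genes as bars. The G2/M and G1/S lists lie below 0 in pairs 1 and 3 and above it in pair 2. The erythroid list is least negative in pair 2, and the neutrophil and monocyte list is most negative in pair 2.

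Markers of other cells were also unequal between the groups and, in part, between the pairs, though 0 of any list below passed the adjusted threshold in limma. Over all genes tested, 7504 of 16635 were lower in NPMc+ on average. At an unadjusted limma p under 0.05, 3.02% of all genes were lower and 5.95% higher. Of erythroid markers, 11 of 11 tested were lower in NPMc+ on average, 7 at an unadjusted p under 0.05. Their pair medians were -0.94, -0.28 and -0.73 log2 units, and for 9 of 11 the difference in pair 2 was the highest of the 3. Their summed level spanned 11.38 to 11.72 in the NPMc+ pools and 11.83 to 12.18 in the control pools; without Car1, the brightest of them, it was 10.52 to 10.97 in NPMc+ and 10.89 to 11.31 in control, so that the groups overlapped. B cell markers, 11 of 11 lower and 7 at an unadjusted p under 0.05, had pair medians of -1.25, -1.21 and -1.20 and summed levels of 12.02 to 12.22 in NPMc+ and 12.39 to 12.59 in control. Cd24a, which differed by -0.24, carried most of that sum, and without it the level was 8.19 to 8.33 in NPMc+ and 9.38 to 9.42 in control. Neutrophil and monocyte markers were lower in 12 of 18, 7 at an unadjusted p under 0.05, with pair medians of -0.49, -0.85 and -0.039 and summed levels of 14.51 to 14.71 in NPMc+ and 14.79 to 15.11 in control. T and NK cell markers were lower in 10 of 12, 5 at an unadjusted p under 0.05 and 2 higher, with pair medians of -0.32, -0.41 and -0.82 and summed levels of 10.37 to 10.55 in NPMc+ and 10.26 to 10.47 in control. Nkg7, which was higher in NPMc+ by 0.48, carried most of that sum, and without it the level was 7.663 to 7.798 in NPMc+ and 8.596 to 8.870 in control. LT-HSC identity genes were higher in 15 of 18, 9 at an unadjusted p under 0.05, with pair medians of 0.35, 0.58 and 0.57 and summed levels of 11.73 to 11.83 in NPMc+ and 11.04 to 11.15 in control. The pair 2 difference was the highest of the 3 for 3 of 11 B cell and 1 of 18 neutrophil and monocyte markers. It was so for 4 of 12 T and NK cell markers and 6 of 18 LT-HSC identity genes, against 37.9% of all genes tested. The part of these markers in the values of the mitosis genes was not tested. Among LT-HSC markers, Procr averaged 5.41 in NPMc+ and 5.33 in control, and Slamf1 5.16 in NPMc+ and 4.76 in control. The deposited table has no detection call, so whether such a marker was absent could not be judged.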

How the data were processed

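RNA of sorted LT-HSC from 3 NPMc+ and 3 control pools was hybridised to 1 array each. The authors deposited log2 expression values of 41345 probe sets, made with RMA per the submitters' processing notes, with no version given. Array medians lay between 3.90 and 3.99. Groups and replicate numbers came from the sample titles, and the number of arrays limits the precision. For 100% of probe sets the mean of same-numbered NPMc+ and control arrays was the same in the 3 pairs within 0.001 log2 units (other pairings, at most 0.343%), and deviations from the group means correlated at -1 in each pair. A replicate effect had thus been taken out before deposit, so only the 3 pair differences carry spread. The pair was therefore a block in the fit, and no array's value is independent of its partner's.

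Of the probe sets, 23521 had 1 gene symbol, 1814 several and 16010 none; per gene the probe set with the highest mean was used. Genes with a mean under the 25th percentile (3.01 log2 units) were left out. limma 3.58.1 (lmFit, eBayes, two-sided) in R 4.3.3 fitted 16635 genes with 2 residual and 4.537 prior degrees of freedom, with Benjamini-Hochberg adjustment over all genes tested and a threshold of 0.05. Figures were drawn with matplotlib 3.10.9. Members, gene lists and the rule for named genes were chosen with earlier results of these data known. By that rule Mki67, Top2a, Cdk1, Plk1, Aurkb, Cdc20, Foxm1, the 4 most positive and the 4 most negative members were given on every array (the rule also names Ccnb1, which was not analysed), and from the other mitosis and G1/S lists up to 6 genes at an unadjusted p under 0.05. Alternatives were no block, quantile normalization, other filters, an intensity trend, averaged probe sets and leaving out each pair.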

Additional observations from a re-analysis of the deposited data

How the results depend on the processing

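The same 3 pair differences underlie every count, and 3 pools a group limit all of them. Without the replicate block, which counts 4 residual degrees of freedom where the pairing leaves 2, limma called 828 of all genes at an adjusted p under 0.05 (4138 unadjusted), 1 member (5 unadjusted), 4 other mitosis genes (21 unadjusted) and 1 G1/S gene (6 unadjusted), against 0, 0, 0 and 0 adjusted with it. After quantile normalization 7 of 97 other mitosis genes and 1 of 28 G1/S genes had an unadjusted limma p under 0.05. Of all 16635 genes tested, 1326 did. The median of the other mitosis genes was then -0.053 log2 units, against 0.032 as deposited. The median of the members was then -0.12. Without the filter on dim genes 1 member had an unadjusted limma p under 0.05, as did 1816 of all 22180 genes. With an intensity trend 1 G1/S gene did, and 1408 of all 16635 genes. Leaving out each pair in turn gave 0 to 24 genes past the adjusted threshold (24 without pair 3, 3 without pair 2), 0 to 1 members, 0 to 6 other mitosis genes and 1 to 2 G1/S genes at an unadjusted p under 0.05. In the same fits 1155 to 1369 of all 16635 genes had an unadjusted limma p under 0.05. The median difference without 1 pair ran from -0.11 to 0.0099 for the members and from -0.024 to 0.061 for the other mitosis genes. The cause of these shifts was not tested. The medians of the members in single pairs kept their sign under quantile normalization, both other filters and averaged probe sets.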
